A study of Canis lupus familiaris with 22 samples.

Results

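The enzymes that modify drugs, steroids and lipids and the ABC pumps that export them were followed across malignant, benign and healthy mammary tissue of dogs. The members were all genes whose probe targets a canine RefSeq mRNA and whose symbol starts with ABC, ALDH, CYP and a digit, FMO, GST, SULT or UGT, which gave 33 genes with 48 probes out of 36619 genes with 43603 probes. ABCG2 and CYP1A1 were not among them and were not analysed here. Malignant and benign tumours came from spontaneous clinical cases and were removed by surgery, and the healthy samples were mammary tissue of dogs without a tumour. The animals received a local anaesthetic (lignocaine) before the tissue was taken, with no other treatment named. By the labels, 6 dogs had a malignant tumour, 3 a benign tumour and 2 healthy tissue, each on a pair of arrays, and scanner values were analysed for 10 of these 11 dogs, which are 5 malignant, 3 benign and 2 healthy dogs on 19 arrays. The study's methods name 4 benign and 3 healthy dogs, and which dogs the labels lack is not stated. Per the study's methods, the malignant tumours were of mixed histology (carcinomas of several kinds, a malignant myoepithelioma and a fibrosarcoma), the benign tumours were adenomas and a cystadenomyoepithelioma, and the labels give no histology per dog. A list in the study's supplement, whose sample numbers are taken here to be those of the labels, names malignant dog 1 as a tubuloacinar solid carcinoma, 2 as mixed papillary and squamous, 3 as a myoepithelioma, 4 as a squamous cell carcinoma, 5 as a lipid rich carcinoma and 6 as a fibrosarcoma, and benign dog 3 as a papillary adenoma beside the plain adenomas of benign dogs 1 and 2. By this numbering the cystadenomyoepithelioma is benign dog 4, which the labels lack, and the fibrosarcoma is the dog without scanner values.

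Cytochrome P450 enzymes (CYP), flavin monooxygenases (FMO) and aldehyde dehydrogenases (ALDH) oxidise drugs and endogenous substrates, which is called phase I metabolism. In phase II, glucuronosyltransferases (UGT), glutathione transferases (GST) and sulfotransferases (SULT) attach a polar group, and ABC transporters use ATP to carry the products or the drugs themselves across membranes. Liver, gut and kidney hold most of this machinery, while mammary tissue is known for local steroid and retinoid metabolism, and tumour cells are known to use ABC pumps and glutathione transferases against chemotherapy.

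Each array was hybridized with Cy3-labelled RNA of a single tissue, and the values of both arrays of a dog were combined as their mean, so that every n counts dogs. A level is the log2 processed signal of a gene's brightest probe minus the 75th percentile of the array, so that 0 marks that percentile. Levels are comparable between dogs, with a limit for dim genes given below, but not between genes. The summed level of a marker list, used below, is therefore weighted towards its brightest probes. The share of probes well above background was 63.7% to 76.4% on malignant, 71.5% to 83.2% on benign and 62.2% to 71.4% on healthy arrays, and arrays of the same dog correlated at r = 0.98 to 0.99 in the 9 dogs with a scanned pair. The number of dogs limits the precision, p-values measure only the spread between these dogs, and fewer cells of a type and less RNA per cell cannot be told apart in such bulk tissue.

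The healthy dogs stood apart in a way that touches every comparison with them. In all 7 exocrine pancreas markers tested, each healthy dog exceeded every tumour. Their summed level was 12.2 in healthy dog 1 and 10.1 in healthy dog 2 against 0.70 to 1.84 in the tumours, and islet markers summed to 9.62 and 4.81 there against -2.29 to 2.28. Of the exocrine markers, REG3A was not well above background on any tumour array. The 6 mammary epithelium markers summed to 5.08 and 6.33 in the healthy dogs, inside the tumours' 1.76 to 8.45, the 4 hepatocyte markers to 2.97 and 3.77 against 3.15 to 6.35, and the 4 endothelium markers to 5.10 and 6.16 against 3.25 to 5.61. The 2 proliferation markers tested, CCNB2 and BIRC5, summed to -0.97 and -1.12 in the healthy dogs, below the 0.07 to 3.25 of the tumours. The 3 macrophage markers summed to -0.89 in healthy dog 1 and 2.36 in healthy dog 2 against 1.41 or more in every tumour, and FCGR1A among them was higher over all tumours (adjusted p = 0.0486 by limma). The sums of the milk, lymphocyte, fibroblast and matrix, and skeletal muscle markers overlapped. Malignant dog 5 also stood apart, with the lowest epithelial sum (1.76), with KRT19 at -3.56 against 1.20 or more in all other dogs, and with the highest adipose sum, 5.71 against -0.22 to 1.78 in the others. The part of these tissues and cells in the results below was not tested.

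**Figure D1:**
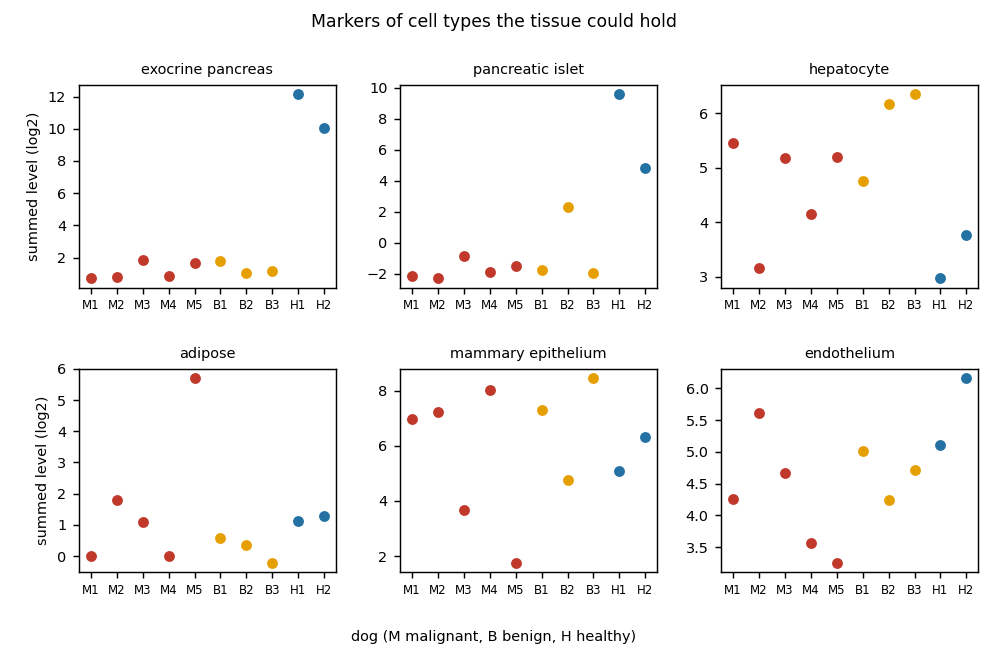
Summed level (log2 of the summed linear levels, vertical axes with different ranges) of the tested markers of 6 tissues or cell types in 5 malignant (M), 3 benign (B) and 2 healthy (H) dogs, 1 point per dog. Exocrine pancreas markers sit at 12.2 and 10.1 in the healthy dogs and at no more than 1.84 in the tumours, and adipose markers reach 5.71 in malignant dog 5.

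Most of the members were measurable in mammary tissue. Of 33 members, 28 had a probe well above background on at least 4 arrays and were tested, and 19 of these were well above background on every array (67.9%, against 64.0% of all 28939 genes tested). Of the others, CYP19A1, CYP2E1, CYP3A26 and CYP4A38 were well above background on no array. CYP19A1 is the aromatase that makes oestrogens, CYP2E1 oxidises ethanol and other small molecules, and CYP3A26 is a canine relative of the main hepatic drug oxidase CYP3A12. Dim members have a limit of their own, because the level of an empty spot differs between dogs: the undetected CYP2E1 read -6.53 in malignant dog 3 and -8.14 in malignant dog 1. It read -6.68 and -7.09 in the healthy dogs and -7.83 to -7.75 in the benign dogs. Each member detected on no array lay lower in every benign dog than in both healthy dogs. A dim member can thus read lower in benign tumours without a measured signal.

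No member passed the test in any comparison. With limma and Benjamini-Hochberg adjustment over all genes tested, 0 of 28 members were called in malignant against healthy tissue (0.304% of all genes were), 0 in benign against healthy tissue (0.28%), 0 in all tumours against healthy tissue (0.328%) and 0 in malignant against benign tumours (0%), and the smallest adjusted p of a member in these comparisons was 0.588, 0.537, 0.365 and 1.00. At an unadjusted p of at most 0.05, 5 members were lower in malignant tumours, 6 in benign tumours and 5 in all tumours, where 3.61%, 3.78% and 4.36% of all genes were, and 0 differed in either direction between malignant and benign tumours (1.77% of all genes). The log2 fold change was negative for 19 of 28 members in malignant tumours (46.1% of all genes), 18 in benign tumours (49.7%), 18 in all tumours (47.1%) and 12 in malignant against benign tumours (44.1%). Its median over the members was -0.52 in malignant and -0.29 in benign tumours, beside 0.07 and 0.01 over all genes, and 0.08 in malignant against benign tumours, the same as over all genes. Both tumour comparisons share the 2 healthy dogs, so the similar directions are not independent.

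**Figure D2:**
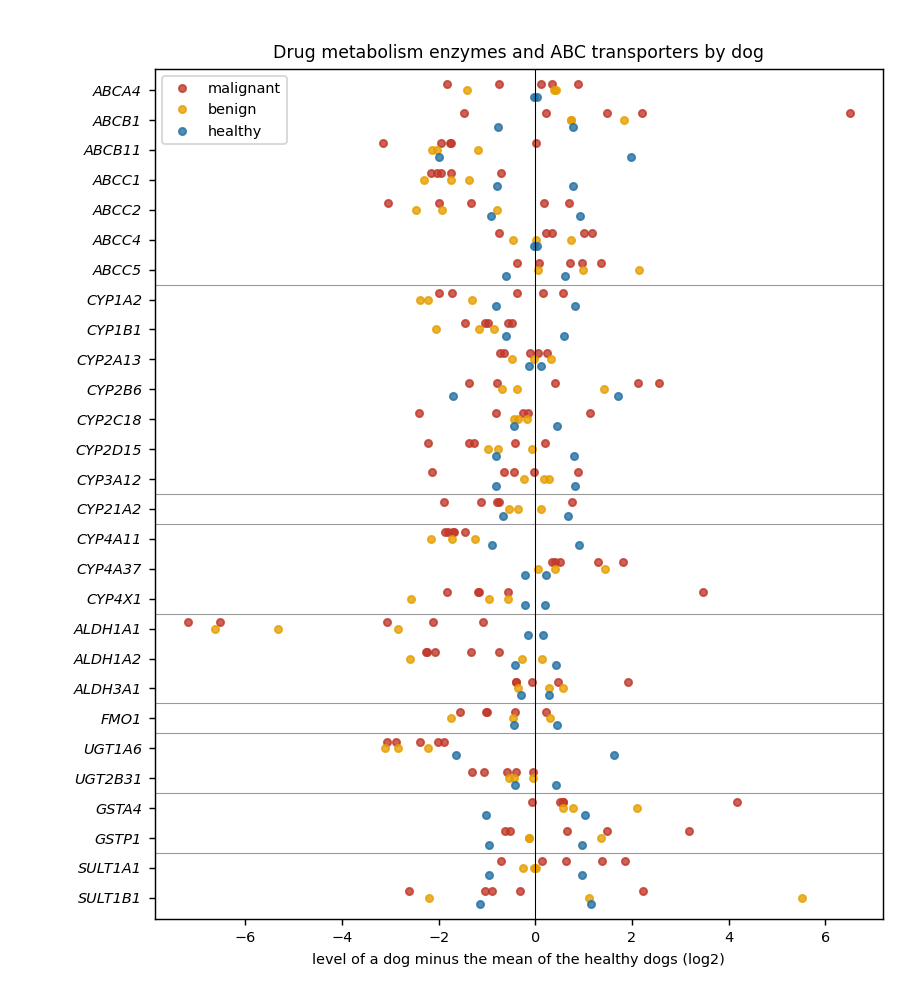
Level of each of the 28 tested members in each dog minus the mean of the 2 healthy dogs (log2), grouped by role with horizontal lines between roles. Every tumour lies to the left of both healthy dogs for ALDH1A1, CYP4A11 and UGT1A6, and single dogs lie far to the right for ABCB1, CYP4X1, GSTA4 and SULT1B1.

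In 3 members all 8 tumours lay below both healthy dogs, and in 0 members above both (1.72% and 2.65% of all genes did so). The 3 were ALDH1A1, UGT1A6 and CYP4A11, which belong to different enzyme families.

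ALDH1A1, the cytosolic aldehyde dehydrogenase that makes retinoic acid, inactivates cyclophosphamide metabolites and is used as a marker of mammary stem-like cells, had the widest difference. Its level was 1.13 and 1.45 in the healthy dogs, -5.23, 0.21, -1.78, -0.83 and -5.90 in malignant dogs 1 to 5, and -1.56, -4.04 and -5.33 in benign dogs 1 to 3. The healthy dogs were close to each other and above all tumours, whereas the tumours spread from just below them (malignant dog 2) down to malignant dogs 1 and 5 and benign dog 3. The probe was well above background on 4 of 4 healthy, 8 of 9 malignant and 4 of 6 benign arrays. The log2 fold change was -4.00 in malignant tumours (SE 1.59, 95% confidence interval -7.51 to -0.48, adjusted p = 0.811 by limma) and -4.93 in benign tumours (SE 1.74, interval -8.76 to -1.10, adjusted p = 0.644). On the slides that held both kinds of tissue, tumour arrays were lower than healthy arrays by log2 values of -4.64, -3.74 and -4.00. In the table of median spot signals, which also covers malignant dog 6, that dog was at -0.51 and again below the healthy dogs at 0.74 and 1.06.

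UGT1A6 conjugates phenols and other planar molecules with glucuronic acid and is found in liver and gut. It was at 0.33 in healthy dog 1 and -2.93 in healthy dog 2, at -4.19, -4.37, -3.19, -3.32 and -3.68 in malignant dogs, and at -3.51, -4.42 and -4.15 in benign dogs. Only healthy dog 1 was far from the tumours, and the healthy dogs differed by more from each other than healthy dog 2 did from the tumours. The arrays of healthy dog 2 read -3.82 and -2.05, so that single arrays of the groups overlapped, and in the table of signals malignant dog 3 (-2.16) was above healthy dog 2 (-2.20). On the log2 scale UGT1A6 differed by -2.45 in malignant tumours (SE 0.77, adjusted p = 0.588 by limma) and -2.73 in benign tumours (SE 0.84, adjusted p = 0.537). Without healthy dog 2 these values were -4.08 and -4.36, and without healthy dog 1 they were -0.81 and -1.09. Each of these fits leaves 1 healthy dog, so only the sizes are given.

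CYP4A11, a fatty acid omega-hydroxylase (also listed as CYP4A39), was likewise highest in healthy dog 1. Its level was -0.81 and -2.61 in the healthy dogs, -3.41, -3.58, -3.17, -3.40 and -3.51 in malignant dogs, and -2.97, -3.88 and -3.44 in benign dogs. The tumours were tightly grouped, healthy dog 2 lay just above them and healthy dog 1 well above. Its log2 fold change was -1.70 in malignant tumours (SE 0.53, adjusted p = 0.588 by limma) and -1.72 in benign tumours (SE 0.58, adjusted p = 0.616). Without healthy dog 2 these values were -2.60 and -2.62, and without healthy dog 1 they were -0.81 and -0.82, again with 1 healthy dog left. Another CYP4A11 probe, well above background on 18 arrays, was higher in tumours by 0.77 and 0.55, while the dimmest of the 3 was lower by -1.45 and -1.81, so the probes disagreed. With normexp background correction in place of the scanner's, neither CYP4A11 nor UGT1A6 kept all tumours below both healthy dogs. CYP4A11 lies beside CYP4A38 and CYP4A37 in the RefSeq gene order, and probes of such neighbouring paralogs may share transcripts.

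**Figure D3:**
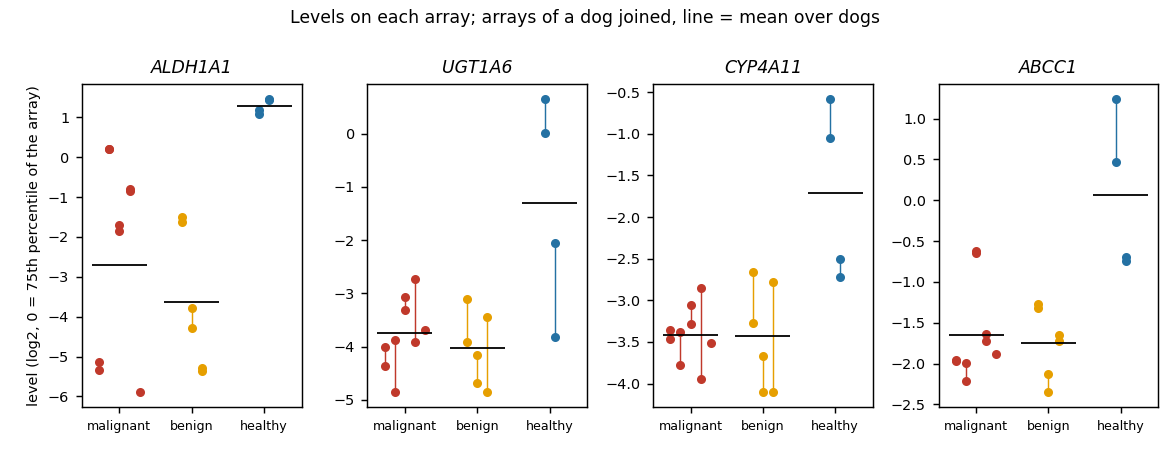
Level on each array (log2, 0 is the 75th percentile of the array) of ALDH1A1, UGT1A6, CYP4A11 and ABCC1 in malignant, benign and healthy tissue. Points are arrays, vertical lines join the arrays of a dog, and horizontal lines are means over dogs. For ALDH1A1 no healthy array overlaps a tumour array, while for UGT1A6 and CYP4A11 healthy dog 2 reaches into the range of the tumour arrays.

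Of these 3 enzymes, the exocrine pancreas sum moved with UGT1A6 and CYP4A11 also between the healthy dogs, being higher in healthy dog 1 (12.2) than in healthy dog 2 (10.1), whereas ALDH1A1 was slightly higher in healthy dog 2. The mammary epithelium sums of the groups overlapped. The part of pancreas RNA in the 3 differences was not tested, and both healthy dogs carry it, so it cannot be told apart from the healthy state.

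Among the other aldehyde dehydrogenases, ALDH1A2, a retinaldehyde dehydrogenase of stroma, was at -5.04 and -5.89 in the healthy dogs, -6.21, -7.54, -6.80, -7.70 and -7.72 in malignant dogs, and -5.33, -5.75 and -8.05 in benign dogs. All malignant dogs lay below both healthy dogs, but the gene was well above background on only 1 of 9 malignant, 4 of 6 benign and 1 of 4 healthy arrays. Its log2 fold change was -1.73 in malignant against healthy tissue (SE 0.75, adjusted p = 0.840 by limma). ALDH3A1, which oxidises aromatic and lipid-derived aldehydes, was well above background on every array, with levels of 3.24 to 5.56 in malignant, 3.29 to 4.21 in benign and 3.36 to 3.94 in healthy dogs, and the groups overlapped. Against healthy tissue this probe differed by 0.30 in malignant and 0.16 in benign tumours. A much dimmer ALDH3A1 probe, well above background on 12 arrays, differed by -0.66 and 0.25.

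The ABC transporters differed in direction among themselves. Of 7 tested, 3 had a positive and 4 a negative log2 fold change in either tumour group, from -1.72 to 1.79 in malignant tumours, and 1 reached an unadjusted p of at most 0.05. That was ABCC1 (MRP1), the pump for glutathione conjugates and anthracyclines. ABCC1 was at 0.86 and -0.72 in the healthy dogs, -1.96, -2.10, -0.63, -1.68 and -1.89 in malignant dogs, and -1.30, -2.24 and -1.69 in benign dogs. Only malignant dog 3 reached the lower healthy dog, and all other tumours lay below both. ABCC1 had a log2 fold change of -1.72 in malignant (SE 0.59, adjusted p = 0.691) and -1.81 in benign tumours (SE 0.64, adjusted p = 0.647), and -0.93 and -1.02 without healthy dog 1. Over all tumours the exact permutation test of 8 against 2 dogs gave p = 0.0889, and the difference was -1.92, -2.55 and -0.77 on the 3 slides that held both tissues.

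ABCB1 (P-glycoprotein), the efflux pump for vinca alkaloids, taxanes and ivermectin, was carried by a single tumour. It was at -3.41 and -1.86 in the healthy dogs, -0.42, -2.42, -4.11, -1.15 and 3.87 in malignant dogs, and -1.89, -1.90 and -0.80 in benign dogs. Malignant dog 5 was far above the rest, and the other groups overlapped. The log2 fold change was 1.79 in malignant (SE 1.61, adjusted p = 0.952 by limma) and 1.10 in benign tumours (SE 1.75, adjusted p = 0.968), and without malignant dog 5 the former was 0.61 (adjusted p = 0.933). Without healthy dog 1 they were 1.01 and 0.33, and without healthy dog 2 the benign value was 1.88. A dimmer ABCB1 probe placed malignant dog 5 at -2.56, next to malignant dog 1 at -2.78, and so did not set that dog apart.

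ABCB11, the bile salt export pump of hepatocytes, was at -5.05 and -1.08 in the healthy dogs, -6.22, -4.82, -5.03, -4.81 and -3.05 in malignant dogs, and -5.10, -4.25 and -5.19 in benign dogs. Healthy dog 2 was the highest, and the probe was well above background on 8 of 19 arrays. Log2 fold changes of -1.72 in malignant (SE 1.01, adjusted p = 0.918) and -1.78 in benign tumours (SE 1.10, adjusted p = 0.829) turned to 0.26 and 0.20 without healthy dog 2. Duplicate arrays of a dog differed by up to 4.07 on the log2 scale for ABCB11, the largest gap of any tested member.

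ABCC5 (MRP5), an exporter of cyclic nucleotides and nucleotide analogues, was at -0.11 and 1.09 in the healthy dogs, 0.56, 0.11, 1.84, 1.45 and 1.20 in malignant dogs, and 0.54, 1.47 and 2.63 in benign dogs. Benign dog 3 was the highest and the groups overlapped, with a log2 fold change of 1.06 in benign tumours (SE 0.74, adjusted p = 0.856 by limma) that was 0.46 without healthy dog 1, 0.52 without benign dog 3 and 1.66 without healthy dog 2. Its dimmest probe, well above background on 4 arrays, ran the other way. Of the rest, ABCC2 (MRP2), the bile canalicular exporter of conjugates, was well above background on 4 of 19 arrays, ABCC4 (MRP4), an exporter of prostaglandins and cyclic nucleotides, ran from -4.51 to -2.58 over all dogs, and ABCA4, the retinoid flippase known from photoreceptors, from -0.10 (malignant dog 5) to 2.61, both with overlapping groups.

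**Figure D4:**
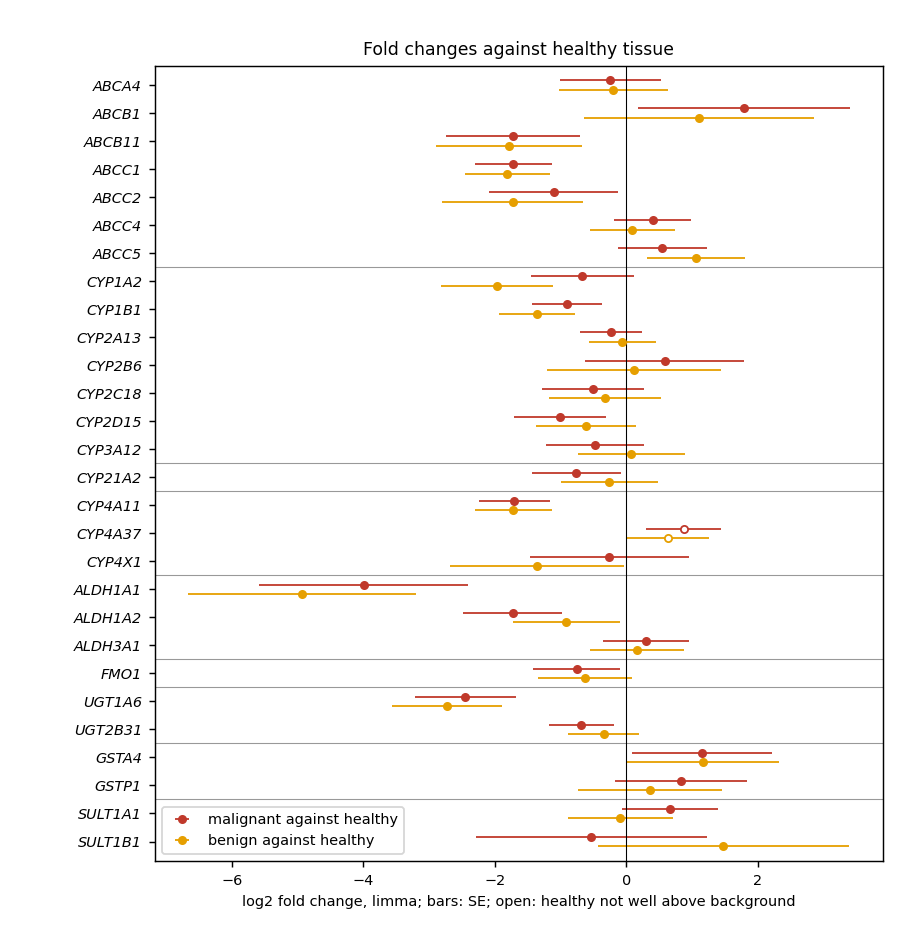
Log2 fold change of each tested member in malignant and in benign tumours against healthy tissue from limma, with bars of 1 standard error, grouped by role. Open symbols mark CYP4A37, which was well above background on no healthy array, so that its plotted value is no measured fold. ALDH1A1 (-4.00 and -4.93) and UGT1A6 (-2.45 and -2.73) lie farthest to the left, and no member passed the adjusted threshold.

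The 7 tested xenobiotic cytochrome P450s had log2 fold changes between -1.01 and 0.58 in malignant and between -1.97 and 0.11 in benign tumours. CYP1A2, an oxidase of aromatic amines and caffeine, was at -3.65 and -2.03 in the healthy dogs, -4.83, -2.26, -2.67, -4.55 and -3.21 in malignant dogs, and -5.06, -4.15 and -5.22 in benign dogs. The benign dogs all lay below both healthy dogs, and the malignant dogs fell into both ranges. The log2 fold change was -1.97 in benign against healthy tissue (SE 0.85, adjusted p = 0.722) and 1.30 in malignant against benign tumours (SE 0.68, adjusted p = 1.00). On the slides with both tissues the tumour values differed by -2.41, 0.33 and -2.67. A dimmer CYP1A2 probe, well above background on 9 arrays, differed by -0.012 between malignant and benign tumours, so the probes disagreed there. Against healthy tissue the mean of this dimmer probe was lower in both tumour groups, as for the brightest probe.

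CYP1B1, an extrahepatic enzyme that hydroxylates oestradiol and polycyclic hydrocarbons, was at 1.11 and -0.09 in the healthy dogs, between -0.95 and 0.03 in malignant dogs and between -1.55 and -0.34 in benign dogs. Its other probe, also well above background on every array, gave 2.67 in benign dog 1, 2.22 in malignant dog 2 and -4.47 in malignant dog 5, with the healthy dogs at -1.67 and -0.14, so the 2 probes did not order the dogs alike. In benign tumours 7 members lay below both healthy dogs in all 3 dogs (11.6% of all genes), namely ABCC1, ALDH1A1, CYP1A2, CYP1B1, CYP4A11, CYP4X1 and UGT1A6, and 0 lay above both (11.9%). Of these, CYP4X1 was well above background on only 2 of 6 benign and 1 of 4 healthy arrays. In malignant tumours 4 members lay below both healthy dogs (2.79%), namely ALDH1A1, ALDH1A2, CYP4A11 and UGT1A6, and CYP4A37 alone lay above (4.23%).

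The drug oxidases best known from liver overlapped between the groups. CYP3A12 was between -4.29 and -1.27 in malignant, -2.38 and -1.87 in benign, and -2.97 and -1.33 in healthy dogs, with malignant dog 5 the lowest, and differed by -0.55 between malignant and benign tumours (SE 0.65, adjusted p = 1.00 by limma). CYP2B6, listed also under the canine name CYP2B11 and known for propofol oxidation, was at -2.15 and -5.55 in the healthy dogs and spanned -5.23 to -1.30 in malignant and -4.55 to -2.44 in benign dogs. CYP2D15, the canine oxidase of several beta-blockers and opioids, was at -1.90 and -3.52 in the healthy dogs, and between -4.92 and -2.50 in tumours. CYP2C18 (also listed as CYP2C21) was lowest in malignant dog 5 at 0.59, against 2.19 to 4.12 in the other dogs, and in the table of signals malignant dog 6 was lower still, with arrays at -0.61 and -0.67. Against healthy tissue this probe differed by -0.50 in malignant and -0.33 in benign tumours. A dimmer CYP2C18 probe, well above background on 16 arrays, differed by 0.64 and 0.97, so the probes disagreed. CYP2A13, an enzyme of nicotine and coumarin oxidation, ran over a narrow range of -4.21 to -3.17.

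Of the enzymes with endogenous substrates, CYP21A2, the adrenal steroid hydroxylase, was well above background on every array, at -2.22 and -3.57 in the healthy dogs and between -4.79 and -2.14 in tumours. CYP4X1, an orphan fatty acid oxidase, was at -1.88 in malignant dog 3 and between -7.17 and -5.92 in the other malignant dogs, between -7.91 and -5.92 in benign dogs, and at -5.14 and -5.56 in the healthy dogs. It was well above background on only 3 of 9 malignant, 2 of 6 benign and 1 of 4 healthy arrays. Malignant dog 3 set the log2 fold change of 1.10 in malignant against benign tumours (SE 1.06, adjusted p = 1.00 by limma), which was 0.17 without that dog. CYP4A37, a fatty acid hydroxylase next to CYP4A11, was well above background on 3 of 9 malignant, 2 of 6 benign and 0 of 4 healthy arrays, with levels of -6.48 to -5.01, -6.76 to -5.37 and -7.03 to -6.60, and no fold is given because the healthy tissue was not measured above background. FMO1, a flavin monooxygenase, was well above background on 5 of 19 arrays.

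Levels of the conjugating enzymes other than UGT1A6 overlapped between tumours and healthy tissue. GSTP1, the glutathione transferase most often linked to drug resistance of tumours, was at 4.60 and 6.52 in the healthy dogs, 4.94, 5.03, 7.04, 6.21 and 8.74 in malignant dogs, and 6.91, 5.43 and 5.42 in benign dogs. GSTA4, which detoxifies the lipid peroxidation product hydroxynonenal, was at -0.51 and 1.52 in the healthy dogs, 1.08, 1.00, 0.44, 1.08 and 4.67 in malignant dogs, and 1.08, 2.61 and 1.29 in benign dogs. Malignant dog 5 had the highest level of both, and the groups overlapped. For GSTP1 the log2 fold change in malignant tumours was 0.83 (SE 1.00, adjusted p = 0.960 by limma) and 0.24 without malignant dog 5. GSTA4 gave 1.15 there (SE 1.06, adjusted p = 0.952) and 0.40 without that dog. In benign tumours GSTA4 gave 1.16 (SE 1.16, adjusted p = 0.919), and 0.14 without healthy dog 1.

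Both arrays of malignant dog 5 could be compared in the table of signals, which has no background correction. There ABCB1 read 3.78 and 3.74, GSTA4 4.25 and 4.23, and GSTP1 8.29 and 8.27, each above all arrays of the other 10 dogs. Malignant dog 5 was the dog with the highest adipose and lowest epithelial marker sums, and among the 19 scanned arrays its array was alone on its slide, so that dog and slide cannot be told apart there.

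**Figure D5:**
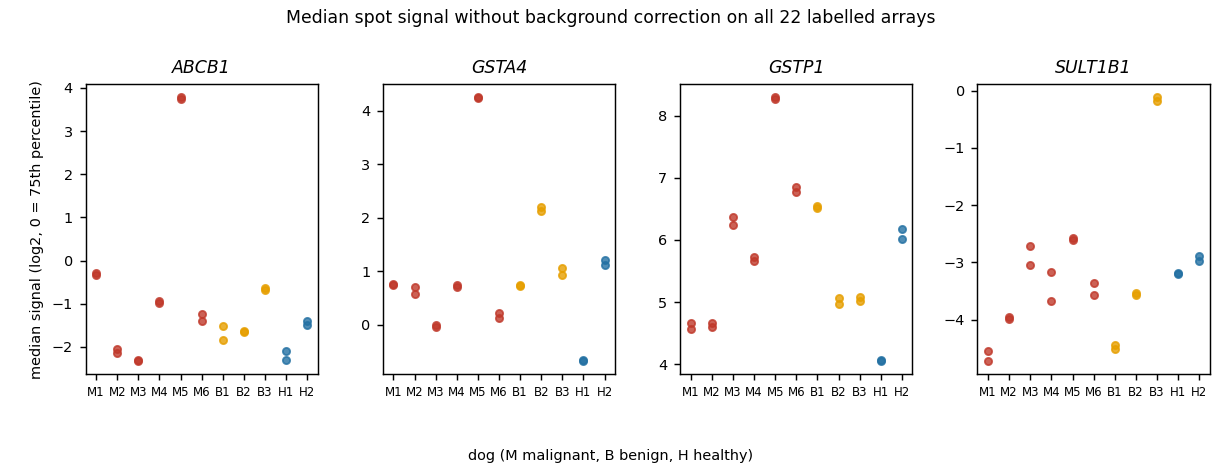
Median spot signal (log2, minus the 75th percentile of the array, no background correction) of ABCB1, GSTA4, GSTP1 and SULT1B1 on all 22 labelled arrays of 6 malignant (M), 3 benign (B) and 2 healthy (H) dogs, 1 point per array. Both arrays of malignant dog 5 are the highest for ABCB1, GSTA4 and GSTP1, and both arrays of benign dog 3 for SULT1B1.

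SULT1B1, a sulfotransferase of thyroid hormones and small phenols in gut and liver, was high in a single benign tumour. It was at -6.66 and -4.37 in the healthy dogs, -8.13, -5.83, -6.42, -6.56 and -3.29 in malignant dogs, and -7.71, -4.41 and 0.00 in benign dogs. Benign dog 3 was far above every other dog, and the probe was well above background on 8 of 19 arrays. The log2 fold change was 1.47 in benign tumours (SE 1.91, adjusted p = 0.949 by limma) and -2.01 in malignant against benign tumours (SE 1.53, adjusted p = 1.00), and without benign dog 3 they were -0.55 and 0.014. SULT1A1, the main phenol sulfotransferase, was at 1.24 and 3.16 in the healthy dogs, 1.50 to 4.05 in malignant and 1.94 to 2.23 in benign dogs, with a log2 fold change of 0.66 in malignant tumours (SE 0.73, adjusted p = 0.955) that was -0.30 without healthy dog 1. UGT2B31, a canine glucuronosyltransferase of steroids and morphine, was at -2.33 and -3.18 in the healthy dogs and between -4.06 and -2.80 in tumours.

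Malignant and benign tumours could not be separated by any member: in 0 of 28 did the 5 malignant dogs lie all above or all below the 3 benign dogs (1.07% and 0.878% of all genes). For ALDH1A1 the log2 fold change between them was 0.94 (SE 1.39, 95% confidence interval -2.13 to 4.00, adjusted p = 1.00 by limma), and for ALDH1A2, well above background on 1 of 9 malignant and 4 of 6 benign arrays, it was -0.82 (SE 0.66, adjusted p = 1.00). The median standard error of a member in this comparison was 0.65 on the log2 scale and 0.75 in malignant against healthy tissue, so that differences of this size were not detectable with these dogs.

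Genes around the pathway were read from lists of regulators, electron donors, other drug-metabolising enzymes, glutathione and redox genes, uptake transporters and steroid synthesis partners, of which 4 of 19, 2 of 5, 10 of 32, 8 of 19, 4 of 12 and 4 of 9 genes were tested. In malignant against healthy tissue 0 of them were called, and in benign against healthy tissue 1 was, the steroid dehydrogenase HSD3B2, which fell (adjusted p = 0.0419 by limma, and 0.0621 in malignant tumours). HSD3B2 was at 3.30 and -1.49 in the healthy dogs, and at -3.22 in malignant dog 5 and -7.82 to -6.47 in the other tumours, and 1 of 15 tumour arrays measured it well above background. POR, the reductase that hands electrons to all microsomal P450 enzymes, stayed between -2.71 and -1.73 in tumours and was at -1.94 and -2.25 in the healthy dogs. Of the 8 glutathione and redox genes tested, HMOX1 and TXNRD1 were higher in all 8 tumours than in both healthy dogs, as 2.65% of all genes were. The rest overlapped, 7 of the 8 had a positive log2 fold change over all tumours, and 0 were called. HMOX1 was at -5.36 and -3.26 in the healthy dogs against -3.13 to 0.45 in tumours (adjusted p = 0.438 over all tumours by limma), and TXNRD1 at 2.55 and 2.35 against 2.64 to 4.53 (adjusted p = 0.759). The proliferation markers were likewise higher in all tumours.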

How the data were processed

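RNA of mammary tissue (RIN above 7, per the labels) was hybridized to 1-colour Agilent canine arrays. The labels call the arrays of a dog number duplicates and the study's methods name duplicate arrays per sample, so they were averaged. The intensity that the authors deposited per array is the background-subtracted processed signal of Agilent Feature Extraction 11.5.1.1 (the submitters' processing notes), with flags for outliers and for signals well above background. The table of signals that the authors deposited holds the median spot intensity and equals the scanner value in all 45220 spots of the 19 arrays. Malignant dog 6 and an array of malignant dog 5 entered only through it. Normalization and the test behind the study's own gene lists (a paired t-test with Storey correction) were not used as the main analysis. All columns of per-sample values could be assigned (0 unused).

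The log2 processed signal minus the 75th percentile of each array was averaged per dog. Genes with a brightest probe marked well above background on 4 or more arrays (28939 of 36619) entered 1 limma 3.58.1 fit of 3 groups (R 4.3.3, the data.table package in version 1.17.8), with a call at an adjusted p of at most 0.05. The fit was tested on simulated data. Exact tests used scipy 1.17.1 and plots matplotlib 3.10.9. With 8 against 2 dogs, the exact test cannot go below 0.0444. Symbols came from a RefSeq table for UU_Cfam_GSD_1.0, which named 2348 of 2441 probes of RefSeq mRNAs. The probes were designed on CanFam3.1, and no coordinates are given. Sequences of probes were not used here. The values of 1 member are not reported here. Members named with values were those called, those with all tumours on 1 side of the healthy dogs, those with the largest fold changes, those with the widest range in each role, and known drug transporters and enzymes. Members and lists were chosen with earlier results of these data known. Alternatives were the background correction, normalization, filter, probe, slide, dog as a random block, dog number as a block, groups in the fit, table of signals, methods' t-test (run unpaired) and each dog left out.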

Additional observations from a re-analysis of the deposited data

Results flagged for a closer look

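In 3 of 28 tested members, a malignant dog lay so far from the other 4 that its gap to the nearest dog, divided by the range of the 5 dogs, was above 0.710 (Dixon's 95% criterion). Chance marks about 1 in 20 such groups. No share over all genes was computed for this criterion, so the count is no result about the members. The ratio was 0.849 for GSTA4, where malignant dog 5 was the highest, 0.762 for CYP4X1, where malignant dog 3 was the highest, and 0.710376 for ABCC1, where malignant dog 3 was the highest. ABCC1 is only just past the criterion. The groups of 3 benign and 2 healthy dogs are too small for this test.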

How the results depend on the processing

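Of 29 log2 fold changes followed through the alternatives, 22 kept their direction under every alternative in which they were computed. The values printed for ALDH3A1 and CYP2C18, and ranges over a family, were not counted there. The number of members called changed only under the methods' t-test without adjustment (paired in the study, unpaired here because the groups are different dogs) and when healthy dog 2 was left out. The former called 4 members in malignant (ABCC1, ALDH1A2, CYP4A11, UGT1A6), 1 in benign (ALDH1A1) and 5 in all tumours against healthy tissue (ABCC1, ALDH1A1, CYP1B1, CYP4A11, UGT1A6), and 0 after the Benjamini-Hochberg or the Storey correction. Without adjustment the same t-test called 1139, 1386 and 1996 of all 28939 genes tested in these 3 comparisons. Leaving out 1 tumour at a time gave 0 calls in each of these comparisons and in malignant against benign tumours. Leaving out a healthy dog left a healthy group of 1 dog, with no spread of its own. Without healthy dog 2 the calls rose over all genes, so the calls of UGT1A6 and CYP4A11 there are no result about these members. With the dog number as a replicate block, 0 members were called. Dogs with the same number correlated at r = -0.19 to 0.11 over 7 pairs, so the numbers do not pair the dogs, and the block turned 1 of the 29 fold changes, GSTP1 in malignant tumours, to -0.11. ALDH1A1 lay below both healthy dogs in all tumours under every alternative that gives a level per dog. UGT1A6 did not with normexp or in the table of signals, and CYP4A11 did not with normexp or with the mean over probes. The members with all tumours lower numbered 3, but 5 without malignant dog 3 (with ABCC1 and CYP4X1) or healthy dog 1 (with ABCB11 and CYP1A2) and 10 without healthy dog 2, and those with all tumours higher 0, but 1 without benign dog 1, 2 without healthy dog 1 and 4 without healthy dog 2. No share over all genes was computed for these runs, so the counts are no result about the members. Other directions that turned were ALDH1A2 in malignant against benign tumours, to 0.57 with normexp and to 0.36 and 0.29 in the table of signals with all arrays and with the scanned arrays, and SULT1B1 in benign tumours, to -0.24 with normexp. Leaving out 1 dog gave a range of -3.77 to 0.20 for ABCB11 in benign and -3.71 to 0.26 in malignant tumours, -0.13 to 1.79 for GSTP1 and -0.30 to 1.62 for SULT1A1 in malignant tumours, -0.55 to 3.31 for SULT1B1 in benign tumours and -3.84 to 0.014 in malignant against benign tumours. The cause of these shifts was not tested. Signal over background limits 9 of the 28 members, which were not well above background on every array.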
